A study of Homo sapiens with 5 samples.

Results

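Mucins are large glycoproteins of epithelial surfaces whose protein backbones carry long serine- and threonine-rich stretches, built from tandem repeats and densely coated with O-linked sugars. Gel-forming mucins (MUC2, MUC5AC, MUC5B and MUC6) are secreted and make up the mucus layer, and membrane-bound mucins (MUC3A, MUC4, MUC12, MUC16, MUC17 and MUC20) stay anchored at the cell surface. In several of these genes the repeats are encoded by a single very large internal exon. The 10 genes were followed through 4 deposited peak lists by the gene name the authors had assigned to each peak. They took 27 of the 63855 rows, of which 1 was in the FOXM1 list, 0 in the LC3 list, 13 in the EBSS evDNA list and 13 in the control evDNA list. The genes were chosen by the peak values of these same lists, and the peaks were selected on the gene name, so the presence, number and size of the peaks are given as a description, with no test.

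All samples came from A549, a lung adenocarcinoma cell line. Cells grown with serum were fixed with formaldehyde and their sonicated chromatin was pulled down for FOXM1, which as a forkhead factor drives genes of cell division, or for LC3, a ubiquitin-like protein of autophagosome membranes. DNA of extracellular vesicles (evDNA) was sequenced with no antibody from cells kept for 3 days in EBSS, a balanced salt solution that holds neither amino acids nor serum, and from untreated cells, called control here; vesicles were collected without serum. Each group had 1 library, so no difference between groups could be set against a replicate spread, and none was tested. After rows with the same interval and several summits were merged to the strongest summit, the lists held 11195 FOXM1, 7801 LC3, 15402 EBSS evDNA and 28993 control evDNA peaks on hg38. Depth was estimated from the 1% quantile of the background and the smallest peak width of a list. Taking control evDNA as 1, it came to 0.479 (FOXM1), 0.762 (LC3) and 1.005 (EBSS evDNA). Peak lists carry no expression, so the identity of the cells could not be checked by markers. CDKN2A, which A549 is known to lack, had no peak in the FOXM1, LC3 and EBSS evDNA lists and 1 in control evDNA (fold 3.07 on 8 fragments, −log10 q 0.716).

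The evDNA peaks lay inside the mucin genes, apart from 1 just past the end of MUC4, and not at their RefSeq starts. To show where those starts are, the RefSeq promoter sequences of the neighbouring chromosome 7 genes are printed 5′ to 3′, on GRCh38.p14, from 250 bases before to 50 bases after the start. Capitals mark the letters TATAAA or TAAACA on either strand; TAAACA is a core of forkhead sites.
MUC3A (chr7:100949284-100949583, + strand): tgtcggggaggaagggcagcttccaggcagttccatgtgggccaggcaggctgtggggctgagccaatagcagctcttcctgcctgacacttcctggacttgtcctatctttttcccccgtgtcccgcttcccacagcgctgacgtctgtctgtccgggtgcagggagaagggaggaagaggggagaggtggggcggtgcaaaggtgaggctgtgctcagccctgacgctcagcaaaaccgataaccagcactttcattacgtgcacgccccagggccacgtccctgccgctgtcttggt
MUC12 (chr7:100969315-100969614, + strand): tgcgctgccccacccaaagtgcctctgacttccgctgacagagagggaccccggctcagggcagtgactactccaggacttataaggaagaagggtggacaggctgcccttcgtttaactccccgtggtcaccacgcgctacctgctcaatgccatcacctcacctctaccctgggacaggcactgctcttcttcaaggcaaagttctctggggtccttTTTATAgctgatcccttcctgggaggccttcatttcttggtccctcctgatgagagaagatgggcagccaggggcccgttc
MUC17 (chr7:101019831-101020130, + strand): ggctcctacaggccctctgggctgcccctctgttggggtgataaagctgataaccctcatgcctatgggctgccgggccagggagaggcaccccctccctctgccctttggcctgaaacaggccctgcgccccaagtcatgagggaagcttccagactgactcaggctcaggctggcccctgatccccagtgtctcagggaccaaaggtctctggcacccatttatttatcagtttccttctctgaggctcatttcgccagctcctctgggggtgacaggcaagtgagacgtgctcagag
No peak of any of the 4 lists touched these windows. The nearest EBSS evDNA peak was 8.3 kb away at MUC3A, 10.4 kb at MUC12 and 14.2 kb at MUC17, and the nearest control evDNA peak was at the same distances after rounding. Sequences were found for 6 of the 10 genes, in 7 windows. TAAACA was in 0 of the 7, where 12.3% of 35116 RefSeq promoter windows held it, and TATAAA was in 1, at MUC12, where 11.5% of all windows held it. These are matches of letters only.

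**Figure D1:**
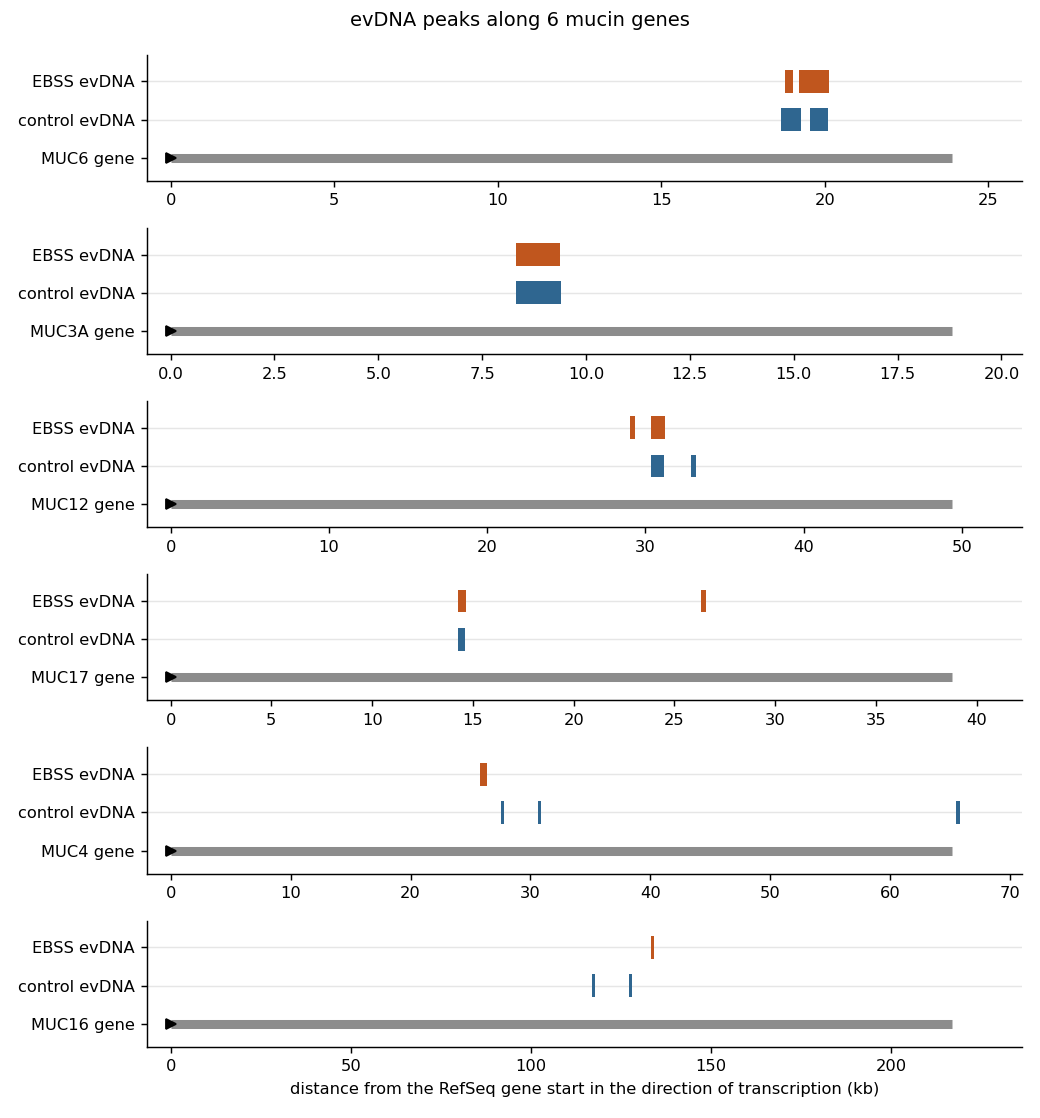
Position of each evDNA peak along 6 mucin genes, as distance in kb from the RefSeq gene start in the direction of transcription; grey bars are the genes, coloured bars the peaks, with EBSS evDNA above control evDNA. All but 1 of the peaks lay inside the genes, between 8.73 kb (MUC3A) and 133.71 kb (MUC16) from the start by their summits. The exception is a control peak just past the end of MUC4. MUC16 is measured from the outermost RefSeq start. Its exons are numbered by transcript ENST00000397910, whose start lay 32800 bases from the exon 3 control peak.

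Vesicle DNA held 20 of the 21 mucin peaks, beside 44395 of the 63391 peaks of all lists. Counted as intervals, 9 lay in EBSS evDNA and 11 in control evDNA, and the same 6 genes had them in both: MUC6, MUC3A, MUC12, MUC17, MUC4 and MUC16. In comparison, 4008 of 20056 protein-coding genes were named by some EBSS evDNA peak, 5435 by some control peak and 2292 (11.4%) by peaks of both lists. By position, the joined spans of the 10 genes, 543.4 kb in all, held 9 EBSS peaks, or 16.6 per Mb, and 11 control peaks, or 20.2 per Mb, beside 5.04 and 9.40 per Mb over the spans of all protein-coding genes. Among the control peaks counted by position is 1 inside MUC16 that the authors assigned to BOLA3P2, and the peak past the end of MUC4 is left out. Of the mucin peaks, 4 of 9 in EBSS evDNA and 7 of 11 in control evDNA had q of at most 0.05, the authors' false discovery estimate, beside 9.77% and 13.3% of the whole lists. Folds are the authors' ratio of summit to local background, each counted with 1 added; their median at mucin peaks was 3.04 in EBSS evDNA and 3.40 in control evDNA, against 2.79 and 2.84 over the lists.

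Of the 4 gel-forming mucins followed, MUC6, the mucin of gastric glands, was the only one with a peak. MUC6 lies on chromosome 11 from 1012823 to 1036718 on the minus strand. EBSS evDNA had a peak from 1016601 to 1017518, with a fold of 5.34 (27 fragments at the summit, exact Poisson 95% interval 17.8 to 39.3; −log10 q 9.21), and a weaker one from 1017683 to 1017944, with a fold of 2.52 (12 fragments; −log10 q 0.372). Control evDNA had a peak from 1016615 to 1017154, with a fold of 4.70 (31 fragments, 21.1 to 44.0; −log10 q 8.98), and one from 1017452 to 1018055, with a fold of 3.67 (23 fragments; −log10 q 4.06). The authors' annotation called all of them promoter peaks, by the start of a short transcript (ENST00000532016) that covers 1013473 to 1016153. From the RefSeq start of MUC6 their summits lay 18.84 to 19.90 kb inside, near the 3′ end of the gene.

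MUC2, the main intestinal mucin, and MUC5AC and MUC5B, the main airway mucins, had no peak in any list. The stretch from MUC2 to MUC5B, 187.3 kb on chromosome 11 from 1074874 to 1262172, was free of peaks of any name in all 4 lists. Over the spans of all protein-coding genes the lists held 3.38 (FOXM1), 3.19 (LC3), 5.04 (EBSS evDNA) and 9.40 (control evDNA) peaks per Mb. In 187.3 kb a count of 0 therefore says little. The nearest EBSS and control evDNA peaks to MUC2 were those in MUC6, 56.9 and 56.8 kb away. The lists leave out some numbers in the authors' peak numbering, but none fell in this stretch in the LC3, EBSS evDNA and control evDNA lists; for FOXM1 this could not be read.

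The membrane-bound mucins MUC3A, MUC12 and MUC17 follow each other on chromosome 7, from 100949534 to 101058859. MUC3A had 1 peak in each evDNA list, over nearly the same bases. It ran from 100957846 to 100958919 in EBSS evDNA, with a fold of 4.04 (33 fragments, 22.7 to 46.3; −log10 q 7.59), and from 100957839 to 100958930 in control evDNA, with a fold of 5.51 (55 fragments, 41.4 to 71.6; −log10 q 20.1). The control peak ranked 177th of 28993 by p and had the lowest p of the mucin peaks. Both were called promoter peaks, by the start of transcript ENST00000414964 at 100957965, 8.73 and 9.13 kb inside MUC3A by their summits. MUC3A has a near-identical copy, MUC3B, which is absent from the RefSeq genes used here. How reads of the copies were placed is not known here, so the MUC3A values are uncertain.

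MUC12 had its peaks in exon 5 of 15 of transcript ENST00000379442. A peak from 100998587 to 100998915 was found in EBSS evDNA alone, with a fold of 5.52, the highest of the mucin peaks (21 fragments, 13.0 to 32.1; −log10 q 7.42). A peak in both lists ran from 100999913 to 101000782 in EBSS evDNA (fold 4.01, 15 fragments) and from 100999921 to 101000756 in control evDNA (fold 4.54, 21 fragments). Another, from 101002428 to 101002764, was found in control evDNA alone (fold 3.40, 16 fragments; −log10 q 2.04). All 4 intervals carry the same exon name, so that exon extends over at least 3514 bases.

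At MUC17, a peak in exon 3 of 12 of transcript ENST00000379439 was weak in both lists, with a fold of 2.58 in EBSS evDNA (101034317 to 101034752, 9 fragments, −log10 q 0.261) and 2.87 in control evDNA (101034361 to 101034709, 11 fragments, −log10 q 0.763). EBSS evDNA had a further peak from 101046393 to 101046654 (fold 3.04, 8 fragments, −log10 q 0.462). It was called a promoter peak, 2682 bases from the start of transcript ENST00000470303.

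MUC4 and MUC16 had peaks in both lists, but none at the same bases. MUC4, on chromosome 3 from 195746771 to 195811929, had an EBSS evDNA peak in exon 2 of 24 of transcript ENST00000478156, from 195785571 to 195786165 (fold 2.80, 12 fragments, −log10 q 0.521). Control evDNA had a peak in the same exon from 195784152 to 195784416 (fold 2.94, 17 fragments, −log10 q 1.47), 1154 bases away. Another, from 195781014 to 195781338 (fold 2.67, −log10 q 0.930), was called a promoter peak. A further one, from 195746115 to 195746450 (fold 2.64, −log10 q 1.06), lay just past the gene's end and was classed as downstream. MUC16 encodes the antigen CA125 and is the longest of the 10 genes, at 216.9 kb on chromosome 19. Its EBSS evDNA peak lay in intron 6 (8931918 to 8932179, 7 fragments, −log10 q 0.261). Its control peaks lay in exon 5 (8937970 to 8938285, fold 3.66, 11 fragments, −log10 q 1.55) and exon 3 (8948278 to 8948542, fold 2.31, 7 fragments, −log10 q 0.301).

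**Figure D2:**
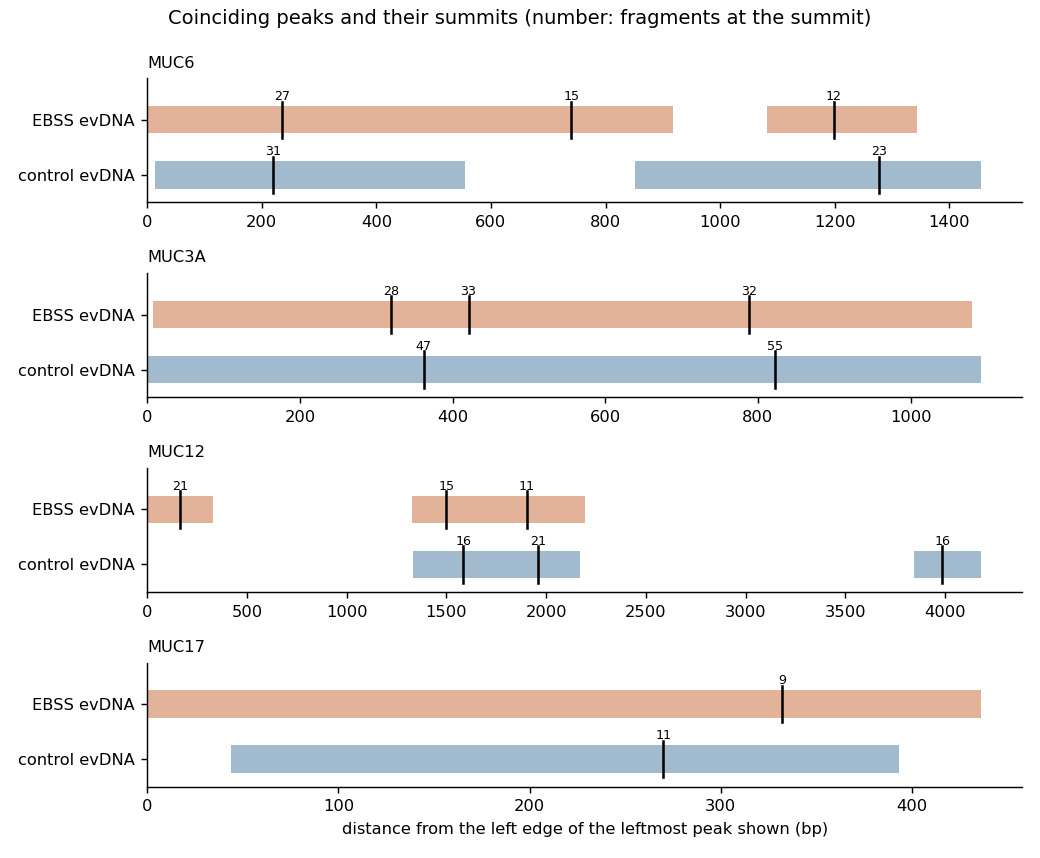
Peaks of MUC6, MUC3A, MUC12 and exon 3 of MUC17 in bp from the left edge of the leftmost peak shown; bars are peaks, black ticks are summits and the numbers are fragments at each summit, with EBSS evDNA above control evDNA. The MUC3A peaks of both lists share their edges to within 11 bp, and MUC12 has 1 shared peak between 2 that are not.

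EBSS and control evDNA peaks coincided at 4 of the 10 genes. Sharing at least 1 bp, 5 of 9 EBSS peaks met a control peak (55.6%), beside 12.1% of the whole EBSS list. In the other direction, 5 of 11 control peaks met an EBSS peak (45.5%), beside 6.47% of the control list. Several of these peaks share a gene, and the genes were chosen on these lists, so no interval is put on the shares. Much of the list is weak, and strong peaks coincide more often throughout. Of peaks with q of at most 0.05, 3 of 4 mucin peaks in EBSS evDNA and 4 of 7 in control evDNA met any peak of the other list, beside 50.4% and 24.8% of all such peaks. These numbers are too few to set the mucin genes apart from other strong peaks.

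Where they met, the peaks covered much the same bases at MUC3A, MUC12 and MUC17, and less so at MUC6. Taking for each of the 5 coinciding EBSS peaks its closest control peak, the shorter lay wholly inside the longer in all 5, beside 36.2% of the 1870 coinciding EBSS peaks of the whole list. A sixth overlap, between the first EBSS and the second control peak of MUC6, was of 67 bases. At MUC3A the starts differed by 7 bases and the ends by 11, and at MUC12 by 8 and 26, where the medians over all coinciding peaks were 88.5 and 87.0. At MUC17 they differed by 44 and 43. The MUC6 differences were 14 and 364 in the first pair and 231 and 111 in the second. There the overlap covered 58.8% of the EBSS peak in the first pair and 43.4% of the control peak in the second. Within the coinciding peaks of MUC3A, MUC12 and MUC17, each EBSS summit had a control summit 34 to 85 bases away, but the strongest summits were not neighbours at MUC3A and MUC12, where they lay 401 and 458 bases apart; the median over all coinciding peaks was 81.0. At MUC6 the summits of the first pair were 16 bases apart and those of the second 80, while a further EBSS summit at 1017341 had its nearest control summit 520 bases away. In these 5 closest pairs the strongest EBSS summit held fewer fragments than the control one, with 27 against 31 and 12 against 23 at MUC6, 33 against 55 at MUC3A, 15 against 21 at MUC12 and 9 against 11 at MUC17. Over all coinciding peaks the control summit held more fragments in 52.5%. In each of the 5 closest pairs the local background was lower in EBSS evDNA too, from 2.88 against 3.18 at MUC17 to 7.41 against 9.17 at MUC3A. The fold was higher in EBSS evDNA at the first MUC6 pair, 5.34 against 4.70, and lower in the other pairs. The Poisson intervals of each of these pairs overlap. They cover counting error only, and a summit is the highest point of its peak.

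**Figure D3:**
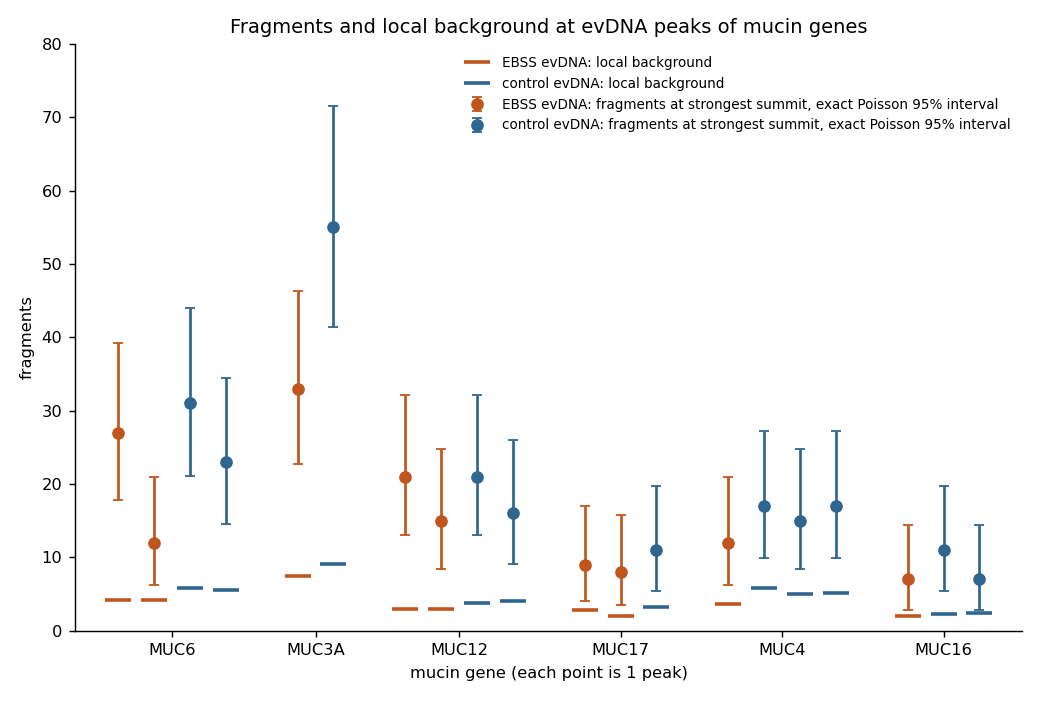
Fragments at the strongest summit of each mucin peak (points, with exact Poisson 95% intervals) and local background (dashes), in fragments, for EBSS evDNA and control evDNA by gene. MUC3A holds the most, 33 in EBSS evDNA and 55 in control evDNA, over backgrounds of 7.41 and 9.17.

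Class, number of summits and local background of the mucin peaks were set beside the whole lists. They were read from the same peaks that led to the choice of genes, so they too are a description. In the authors' annotation 4 of 9 EBSS peaks and 6 of 11 control peaks lay in exons, beside 2.21% and 1.93% of the whole lists; these were the peaks of MUC12 and the exon peaks of MUC17, MUC4 and, in control evDNA, MUC16 given above. The promoter class, up to 3 kb from a transcript start, held 4 of 9 and 4 of 11, beside 19.1% and 17.8%. None of these promoter peaks was within 3 kb of the RefSeq start of its gene, where their summits lay 8.73 to 26.4 kb away in EBSS evDNA and 9.13 to 30.7 kb in control evDNA. Genes with large exons offer more exon sequence to any peak, and exon lengths were not used here.

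Most mucin peaks had a single summit, but 3 of 9 EBSS peaks (1 each in MUC6, MUC3A and MUC12) and 2 of 11 control peaks (1 each in MUC3A and MUC12) had more than 1, beside 0.662% and 0.7% of the lists. The local background, recovered from fold and p, was above the list's median in 7 of 9 EBSS peaks, which held 2.88 to 7.41 fragments of background. It was above the median in 11 of 11 control peaks, with 2.28 to 9.17 fragments; 49.8% of the EBSS list and 49.9% of the control list were above theirs. The 2 EBSS peaks not above it, in MUC17 and MUC16, both had 1.97. That background measure was tried with 3 cuts, all after the values were seen, and the count for EBSS evDNA depends on the cut: with at least 3 fragments it was 4 of 9, beside 20.3% of the list. The part of repeated sequence in these peaks was not tested.

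**Figure D4:**
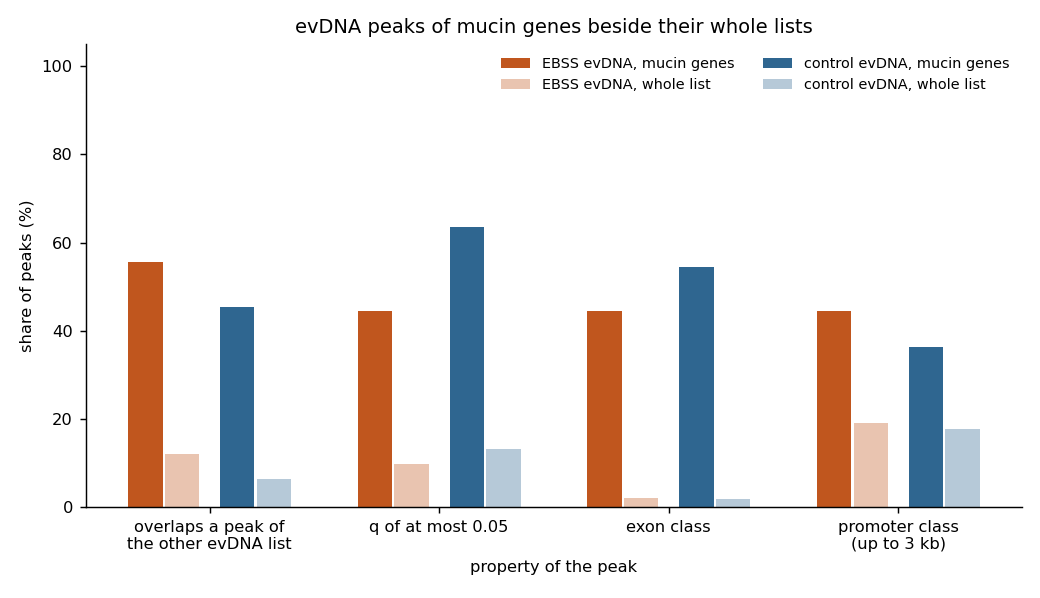
Share of evDNA peaks in % with each property, for mucin genes (dark bars; 9 EBSS and 11 control peaks, with no error bars since the genes were chosen on these lists) and for the whole list (pale bars), EBSS evDNA left of control evDNA. The exon class shows 44.4% and 54.5% at mucin genes beside 2.21% and 1.93% of the lists.

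Neither immunoprecipitation had a peak inside the RefSeq span of any of the 10 genes. Over the spans of all protein-coding genes there were 3.38 FOXM1 and 3.19 LC3 peaks per Mb, so a count of 0 in 543.4 kb says little. The only FOXM1 row was assigned to MUC20, a small membrane-bound mucin with a near-identical pseudogene copy, which makes its value uncertain, on chromosome 3 from 195735941 to 195736424. It held 4 fragments over a background of 1.08, a fold of 2.41, with −log10 q of 0 and the lowest −log10 p of its list; 1.97% of FOXM1 peaks had q of at most 0.05. It lay 2.4 kb past the RefSeq end of MUC20, in an intron of MUC20-OT1, a transcript beside it, and met no evDNA peak, beside 2.74% of FOXM1 peaks that met one. LC3 had no mucin peak. In turn, 0 of 9 EBSS and 0 of 11 control mucin peaks met a FOXM1 or LC3 peak, beside 1.77% and 1.6% of the lists, so at this number of peaks a count of 0 says little. MUC20-OT1 itself had a FOXM1 peak of higher fold from 195675290 to 195675861, at 4.71 (12 fragments, −log10 q 2.66); it was looked up after the values were seen.

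Related genes were counted in 4 lists, by the gene name the authors had assigned to each peak. Over all 20056 protein-coding genes, 11.4% had a FOXM1 peak, 14.3% an LC3 peak, 4008 genes an EBSS evDNA peak and 27.1% a control evDNA peak. Of 15 other mucin genes, 3 had a FOXM1 peak, 1 an LC3 peak, 2 an EBSS evDNA peak and 6 a control evDNA peak. Of their 6, 1, 2 and 14 peaks, in that order, 0 had q of at most 0.05. Over the whole lists, 1.97% of FOXM1, 9.77% of EBSS evDNA and 13.3% of control evDNA peaks did, and 295 of 7801 LC3 peaks. With so few peaks a count of 0 says little. The highest folds were in peaks assigned to MUC19, a gel-forming mucin (FOXM1, 3.85), EMCN, an endothelial sialomucin (control, 3.48), MUC7, a salivary mucin (EBSS, 3.14), and MUC15 (control, 3.13). That EMCN peak was intergenic, at −96.2 kb from the transcript start. Of 30 genes of mucin O-glycosylation, which add and extend the sugars, 5, 12, 11 and 17 had peaks in FOXM1, LC3, EBSS evDNA and control evDNA, led by GALNT3 (LC3, 4.17), GALNT17 (FOXM1, 3.85), C1GALT1, the core 1 synthase (control, 3.83), and GALNT14 (FOXM1, 3.80). Of their 10, 20, 21 and 38 peaks, in that order, 0, 0, 2 and 2 had q of at most 0.05. None of these shares was above that of its whole list. Of the named peaks only that of C1GALT1 had q of at most 0.05. Of 25 genes of mucus secretion and goblet cells, 0, 4, 3 and 3 had peaks in the same order. Of their 6 LC3, 7 EBSS evDNA and 6 control evDNA peaks, 0, 2 and 1 had q of at most 0.05. These numbers are too few to compare with the whole lists. FCGBP, whose product is secreted with mucus, had the highest fold of the 4 lists, at 4.51. That EBSS evDNA peak lay within 1 kb of a transcript start (17 fragments, −log10 q 4.22). EGFR (control, 3.66, −log10 q 1.55) and NOTCH2 (control, 3.56, −log10 q 1.29, so q above 0.05) followed. The peak assigned to EGFR was intergenic, at −36.8 kb from the transcript start. Of 20 genes around the mucin clusters, 2, 2, 5 and 4 had peaks, 1 for each gene. None of these peaks had q of at most 0.05, and with so few of them this says little. TRIM56 (EBSS, 3.31), SDHAP2 (LC3, 3.03), TFRC (control, 2.89) and BRSK2 (EBSS, 2.79) led by fold. The TRIM56 peak, too, was intergenic, at −5.9 kb. Of the EBSS peaks, 1 of 21 met a control peak in O-glycosylation genes, 0 of 7 in secretion and goblet genes, 0 of 5 in the neighbours and 0 of 2 in the other mucins, beside 12.1% of the whole EBSS list; with so few peaks, counts of 0 or 1 say little.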

How the data were processed

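The data were narrow peak lists from A549 cells, 1 library each for FOXM1 ChIP, LC3 ChIP, EBSS evDNA and control evDNA, grouped by antibody and title labels; an input library is labelled but was not analysed here. Peaks were called with MACS3 3.0.0a6 and annotated with ChIPseeker on hg38, after fastp 0.20.0, FastQC 0.11.8 and BWA, as read from the tool names in the submitters' processing notes. Whether an input served as background for peak calling is not known here, nor which libraries had single-end and which paired-end reads. Each deposited peak has a fold, the authors' linear ratio of summit to background, with −log10 p and −log10 q, and an unused score that is 10 times −log10 p without decimals. In the EBSS list the headings of the p and q columns are damaged, and these were identified by position and values. Folds, p and q are the authors' and describe single peaks.

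Rows with 1 interval were merged to the strongest summit. Fragments and local background at summits were recovered by solving fold and Poisson p for a whole pileup, within 0.01, a step tested on simulated data; at least 99.97% of peaks in each list matched. Read totals are unknown. Peaks coincided when 1 bp was shared. Gene spans and promoters came from RefSeq tables (GRCh38.p14); no genome sequence was used, so peak sequences and repeats were not examined. Named genes were all members and up to 4 genes of highest fold in each related list, of which 1 is not reported here. The members and lists were chosen with earlier results of these data known. Computation used Python 3.11.15, pandas 2.3.3 and scipy 1.17.1.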

Additional observations from a re-analysis of the deposited data

How the results depend on the processing

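Counts were recomputed with q of at most 0.05, −log10 p of at least 3, unmerged summits, genes taken by RefSeq span and lists at equal length, and coincidence also with 50% of the shorter peak or edges within 1 kb. Within 1.5 times the reported count stayed 14 recomputed counts of peaks per list, where 6 did not, and 11 of coinciding peaks, where 1 did not. With q of at most 0.05, mucin peaks numbered 0 in FOXM1, 4 in EBSS evDNA and 7 in control evDNA, and 3 EBSS peaks coincided with a control peak. The 1 FOXM1 peak was also lost, to 0, with −log10 p of at least 3, by RefSeq span and at equal list length. Measured from RefSeq starts, the promoter class held 0 EBSS and 0 control peaks. Among cuts for the local background, all added after seeing the data, at least 3 fragments gave 4 EBSS peaks and 9 control peaks, and over 1.2 times the list's median gave 7 and 10, beside the reported 7 and 11. Coincidence stayed at 5 peaks in each list under every other setting for it, except 4 control peaks with q of at most 0.05. Classes from RefSeq exons and repeats under peaks were not run, since exon positions and genome sequence were not used here. No paired analysis was possible because each group had 1 library. Mucin evDNA peaks with q above 0.05 rest on 7 to 17 fragments, which limits their precision.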
